A study of Drosophila melanogaster with 2 samples.

Results

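The 246 peaks described here lay in distal intergenic DNA: their summits were more than 1 kb from every transcription start site (TSS) of a protein-coding gene and outside every protein-coding gene in the Ensembl annotation of the Drosophila melanogaster BDGP6 (dm6) assembly. The summit was the position of highest enrichment that the authors recorded for each peak. The 246 peaks made up 13.7% of the 1799 peaks that the conservative pooled list placed on the main chromosome arms, and the list held 1814 peaks in all. Bases that met the same rule covered 37.9 Mb, or 28.3% of the 134 Mb of these arms. The summits nearest to the 1 kb limit on its excluded side were 921, 951 and 1000 bp from a TSS, with signals of 98.1, 63.9 and 94.3. The nearest on the included side were at 1014, 1039 and 1081 bp, with signals of 62.9, 158 and 177.

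The assay was ChIP-seq on whole pupae, aged 2 days, of the transgenic strain CG10348-GFP, which expresses the C2H2 zinc-finger protein CG10348 fused to eGFP. Chromatin was sonicated and precipitated with an antibody against GFP, and the 2 biological replicates formed 1 group in which every animal carried the fusion. The promoter of the transgene, the number of animals pooled and the tissues that expressed the fusion were not stated, so a peak may come from any cell type of the pupa. The control, shared by both replicates, was not analysed here, no second condition or animals without the tag were among the samples, and the files held no read counts, so the depth was unknown and no test between conditions was possible.

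In Drosophila, distal intergenic DNA holds many enhancers, short stretches that bind combinations of transcription factors and raise transcription from promoters that may lie far away. It also holds genes for long non-coding RNAs (lncRNAs), which have promoters of their own and which the rule did not exclude. CG10348 is related to the PRDM-family gene ham (hamlet), its neighbour, which acts in the fates of sensory neurons and their support cells.

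The sequences at 6 summits are given first, as the 100 bp centred on the summit on the + strand of the RefSeq genome of the dm6 assembly. They are the strongest distal intergenic peaks of chromosomes X, 3R and 2L, followed by the strongest peaks next to ham and inside the Enhancer of split complex. Capitals mark runs of at least 8 bases that are all A or T.
CG4004/Paics, chrX:12751356-12751455: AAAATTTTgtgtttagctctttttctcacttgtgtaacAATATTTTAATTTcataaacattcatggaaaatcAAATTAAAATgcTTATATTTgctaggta
mtSSB/tara, chr3R:16222436-16222535: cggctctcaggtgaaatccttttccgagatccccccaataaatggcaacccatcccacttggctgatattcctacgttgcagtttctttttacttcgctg
COX7AL2/CG31668, chr2L:2202350-2202449: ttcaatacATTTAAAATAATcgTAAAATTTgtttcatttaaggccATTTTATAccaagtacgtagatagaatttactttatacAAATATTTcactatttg
CG4004/Paics, chrX:12754471-12754570: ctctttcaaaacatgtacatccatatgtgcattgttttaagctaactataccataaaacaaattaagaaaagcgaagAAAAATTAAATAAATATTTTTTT
CG15167/ham, chr2L:18752148-18752247: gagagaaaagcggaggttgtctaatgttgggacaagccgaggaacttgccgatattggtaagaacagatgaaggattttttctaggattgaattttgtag
E(spl)m2-BFM/E(spl)m3-HLH, chr3R:26019346-26019445: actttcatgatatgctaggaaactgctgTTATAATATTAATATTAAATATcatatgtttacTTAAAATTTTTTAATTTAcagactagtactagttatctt
The COX7AL2/CG31668 window held 22.0% G and C, the Enhancer of split window 21.0%, and both CG4004/Paics windows slightly more. In each of these 4, A/T runs took up 23 to 40 of the 100 bases. The windows of the mtSSB/tara and ham peaks held 48.0% and 41.0% G and C and no A/T run of that length, so a strong signal occurred with and without such runs.

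The signal of a peak is the authors' own measure of its strength, on a scale that was not stated, and it serves here only to describe and rank regions. The pooled signal of the 246 distal intergenic peaks had a median of 78.0 and quartiles of 63.0 and 109, against a median of 88.1 and quartiles of 65.8 and 132 for the 1553 other main-arm peaks. It ran between 4.02 and 622 among the distal intergenic peaks and up to 1064 among the others. The distal intergenic peaks were thus weaker by the median and had a lower maximum, while the ranges between the quartiles overlapped. Of the 246, 8 were among the 100 strongest main-arm peaks and 2 among the 25 strongest. Signals above 200 occurred in 16 and signals under 39.0, which is 0.5 times the median, in 11. Of those 11, 7 rested on a pair of replicate regions that also supported a stronger peak, as did 9 of the 246 in all.

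In the replicates' own ranked lists, 243 of the 246 peaks had a region in each list. Replicate 1 signals had a median of 42.7 at distal intergenic peaks and 50.6 at other peaks, and replicate 2 signals had medians of 36.5 and 40.4. Over the 234 distal intergenic peaks that had both values and shared no pair, the replicates correlated with a Spearman coefficient of 0.542, against 0.714 over 1468 other peaks. On the log2 scale the Pearson coefficients were 0.732 and 0.815. These correlations run across peaks, which share the 2 libraries and the control and are not replicates. At distal intergenic peaks replicate 1 exceeded replicate 2 by a median log2 ratio of 0.19 (SD 0.50 across peaks, a spread of 1.42-fold), and at other peaks by 0.29 (SD 0.48). The replicates differed by more than 2-fold at 21 of the 234 distal intergenic peaks (8.97%) and at 111 of the 1468 others (7.56%).

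**Figure D1:**
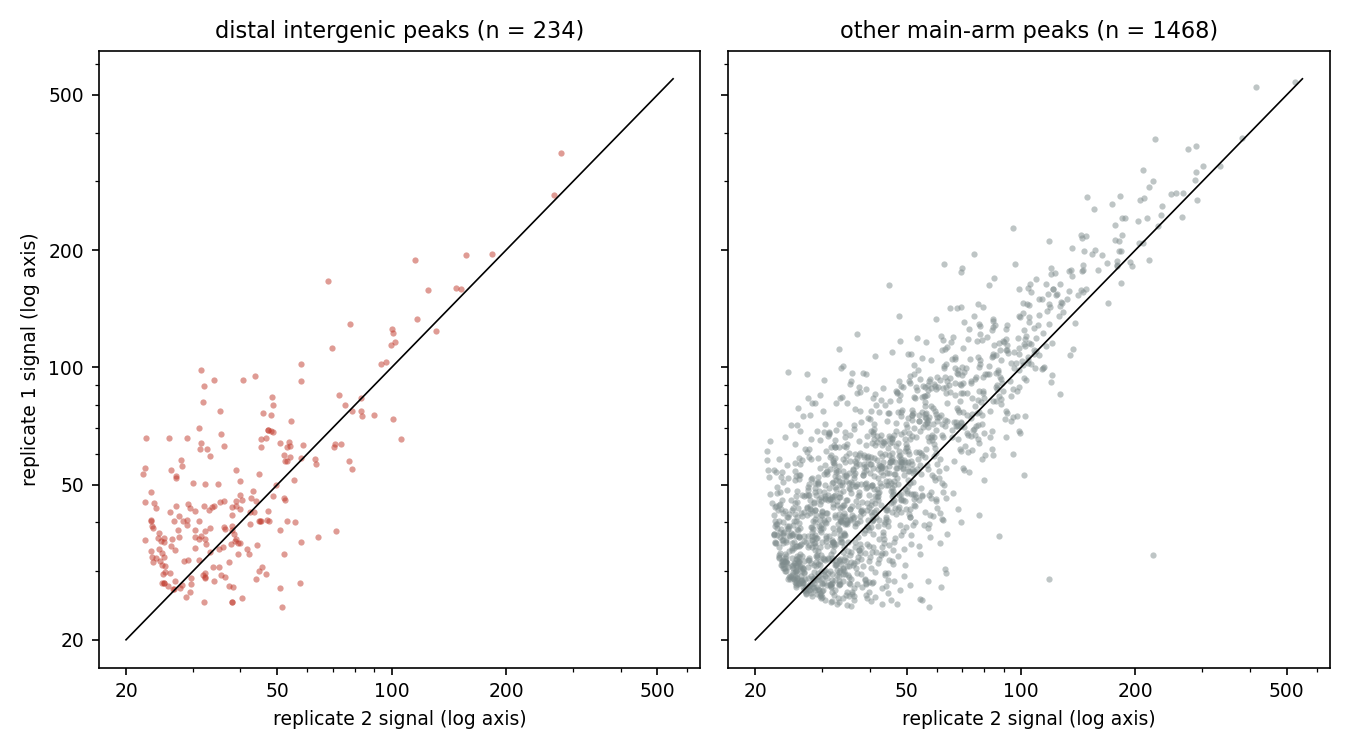
Replicate 1 signal (vertical) against replicate 2 signal (horizontal), both on log axes, for 234 distal intergenic peaks (left) and 1468 other main-arm peaks (right), with the line of equal signal. Each point is 1 peak. Most points lie above the line in both panels, 160 of the 234 distal intergenic peaks and 1083 of the 1468 others, and the weak peaks scatter more than the strong ones.

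Each replicate also had its own thresholded list, made by comparing the ranks of the same regions in paired lists. Listed peaks passed an irreproducible discovery rate (IDR) of 0.01. Of the 246 distal intergenic peaks, 127 (51.6%; Wilson 95% interval 45.4 to 57.8%, counting error only) overlapped a listed peak of replicate 1, where 61.0% of all 1799 main-arm peaks did. For replicate 2 the number was 113 (45.9%), against 53.6% of all main-arm peaks. Peaks of both replicates overlapped 77 of the 246 (31.3%; 25.8 to 37.3%), against 43.6% of all main-arm peaks and 45.5% of the others. A further 50 (20.3%) were in the list of replicate 1 alone, against 17.5% of all main-arm peaks. In that of replicate 2 alone were 36 (14.6%), against 180 of all 1799. In neither were 83 (33.7%), against 29.0% of all. The optimal list, the authors' second pooled list, overlapped 212 (86.2%), against 88.5% of all. Presence in both lists rose with the signal above 60, but not below it. Above 120, 45 of 48 distal intergenic peaks (93.8%) and 95.9% of other peaks were in both. Between 80 and 120 the shares were 40.6% and 50.1%. Between 60 and 80 they were 2.63% and 2.81%, and at 60 or below 3.77% and 12.2%.

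The strongest distal intergenic peaks lay beside genes of several kinds, and all of the 20 strongest were in both replicates' lists. The peak of highest signal, at chrX:12751222-12751569, had a signal of 622 in the pooled samples, 355 in replicate 1 and 279 in replicate 2. It lay in the convergent gap between CG4004 and Paics, which encodes an enzyme of purine synthesis, and inside lncRNA:Vinr, an lncRNA named for its induction by virus. The next peaks of the same gap had signals of 310 and 224, with 159 and 122 in replicate 1 and 153 and 101 in replicate 2. Both lay inside lncRNA:CR44619. These 3 were the highest of 6 distal intergenic peaks in that gap of 7250 bp.

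Of the 20, 4 lay in 3 gaps beside Psc, Su(z)2 or RYBP, which are described together here as chosen after their values were seen and were not counted as a list. Psc and Su(z)2 encode related subunits of the Polycomb repressive complex PRC1, and RYBP encodes a Polycomb-associated protein. The peak downstream of Su(z)2, at chr2R:13035228-13035447, had a signal of 550, with 278 in replicate 1 and 267 in replicate 2. It lay 27424 bp from the end of Su(z)2 and 11921 bp from its nearest TSS, that of CG13323. A peak 4219 bp upstream of Psc had a signal of 233, with 166 in replicate 1 and 68.1 in replicate 2, the widest replicate gap among the 20. In the convergent gap between RYBP and Ppa, which encodes an F-box protein, 3 peaks had signals of 129, 204 and 313. The strongest of them had 189 in replicate 1 and 115 in replicate 2. All 3 were in both replicates' lists.

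The third and seventh peaks in rank stood upstream of genes with broad functions. A peak 3165 bp upstream of tara (taranis), a trithorax-group gene, had a signal of 384, with 195 in replicate 1 and 183 in replicate 2. A peak 5713 bp upstream of eEF1gamma, which encodes a subunit of a translation elongation factor, had a signal of 303, with 160 and 148 in the replicates. Other peaks among the 20 lay upstream of Atf3, a bZIP transcription factor gene (signal 257), of Act5C, a cytoplasmic actin gene (248), and of stck, which encodes an adaptor at integrin adhesions (223). Another lay next to Shal, a potassium channel gene (233). Others lay between COX7AL2 and CG31668 (350), CG43245 and CG12523 (281), CG7560 and CG6149 (225), CG6168 and CG6163 (197), CG30151 and CG30154 (190), and CG11550 and CG42693 (177). Of the 20, 9 lay on the upstream side of their nearest TSS. A width below 336 bp, the width of most peaks, occurred in 16 of the 20. It occurred in 18 of all 246 (7.32%), against 10.9% of other main-arm peaks.

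**Figure D2:**
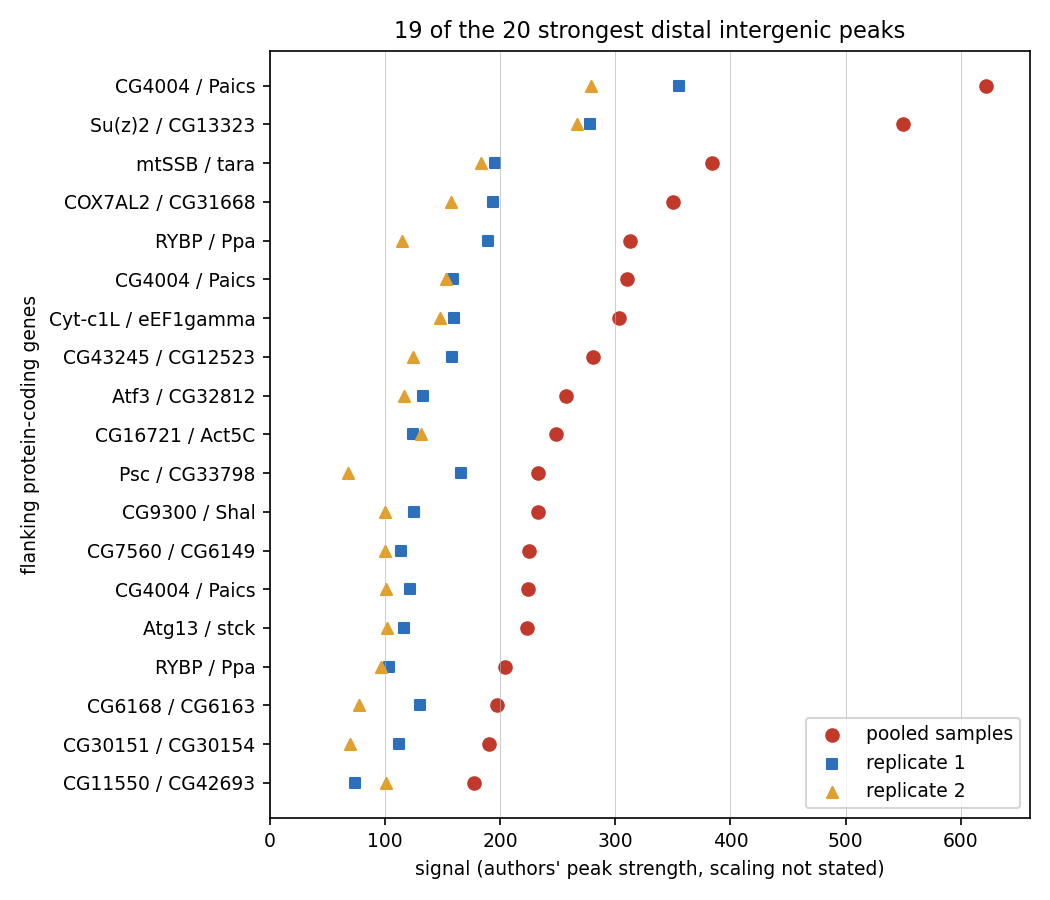
Signals of 19 of the 20 strongest distal intergenic peaks in the pooled samples (circles), replicate 1 (squares) and replicate 2 (triangles); each row is 1 peak, named by its flanking protein-coding genes, and the horizontal axis is the authors' signal. The pooled signals fall between 177 and 622, and the replicate values lie close together in most rows and widest apart next to Psc.

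Non-coding RNA genes stood near many of these peaks. Of the 246 distal intergenic peaks, 78 (31.7%; 26.2 to 37.8%) had a non-coding RNA gene within 1 kb of the summit. The comparison set was 34280 distal intergenic regions of the pooled ranked list that met the same position rule, scored below the threshold and touched no conservative peak; 14.6% of them had such a gene. The gene was an lncRNA at 75 of the 78 peaks, an antisense RNA at 2 and a small nucleolar RNA at 1. The last peak lay 92 bp upstream of snoRNA:Psi28S-3342, named for a modification of ribosomal RNA, with a signal of 71.2, 43.5 in replicate 1 and 29.5 in replicate 2. No miRNA, tRNA or snRNA gene was the nearest within 1 kb. Pseudogenes were counted as non-coding genes throughout. A pseudogene was the nearest such gene within 1 kb at 0.645% of comparison regions and at no peak. The flanking gaps of the peaks were shorter, with a median of 18700 bp against 25829 bp for the comparison regions. In gaps of up to 20 kb the share was 35.7% of 126 peaks and 16.3% of regions, and in longer gaps 27.5% of 120 peaks and 14.0% of regions, so the peaks' share was the higher within each class of gap. Comparison regions at the arm ends have no gap and were left out of this split.

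The summits also lay near the starts of non-coding genes. A non-coding TSS was within 250 bp of 14 distal intergenic summits (5.69%) and of 2.35% of comparison regions, and within 1 kb of 50 summits (20.3%; 15.8 to 25.8%) and of 8.24%. Of those 50 summits, 29 were upstream of that TSS (58.0%; 44.2 to 70.6%), against 45.3% in the comparison regions. The 50 had a median signal of 87.2 and 42.0% were in both replicates' lists. The remaining 196 had a median signal of 76.4 and 28.6% were in both lists. Close examples were the peak near eEF1gamma, 103 bp upstream of lncRNA:CR31044, the peak upstream of Psc, 154 bp from lncRNA:CR44339, and the peak next to CG11550, 58 bp downstream of the start of lncRNA:CR44091.

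Summits inside a non-coding gene numbered 41 (16.7%), all in lncRNAs, against 8.10% of comparison regions. The strongest of them included the 3 in the CG4004/Paics gap and those in lncRNA:CR45668 next to Act5C (signal 248), lncRNA:CR44676 next to Shal (233), lncRNA:CR44091 (177), lncRNA:CR44810 next to slbo (170), lncRNA:CR32773 next to peb (165) and lncRNA:CR45251 between CG6168 and CG6163 (129). The slbo gene encodes a C/EBP factor, and peb (pebbled) a zinc-finger factor of epithelia. The peak next to slbo had 65.5 in replicate 1 and 106 in replicate 2, and that next to peb had 75.3 and 89.6. Of the 20 strongest peaks, 12 had a non-coding gene within 1 kb and 7 lay inside one.

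Distance from the TSS spread widely. The median was 4711 bp, with quartiles of 2423 and 10852 bp, and a range of 1014 to 137247 bp. The comparison regions had a median of 7666 bp. Between 1 and 2 kb lay 49 peaks (19.9%, against 11.1% of comparison regions), between 2 and 5 kb 77 (31.3%, against 24.8%), and between 5 and 10 kb 54 (22.0%, against 7883 of the 34280). Between 10 and 20 kb lay 47 (19.1%, against 20.8%), and beyond 20 kb 19 (7.72%, against 20.3%). The peaks thus stood nearer to promoters than the comparison regions, although all were chosen to be over 1 kb away. The strength of a peak varied little with distance: the median signals of the 5 classes were 77.7, 79.5, 79.4, 78.9 and 68.9. Across the 246 peaks, Spearman's coefficient of signal with distance was -0.0404 and with the length of the gap -0.0799.

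**Figure D3:**
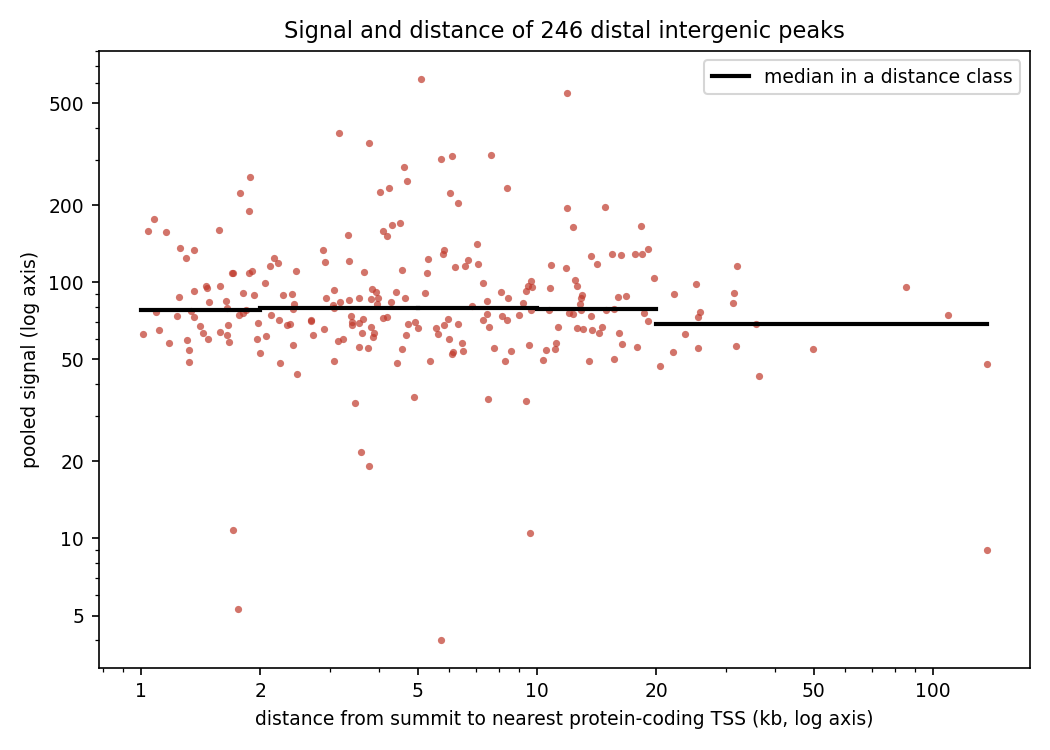
Pooled signal (log axis) of each of the 246 distal intergenic peaks against the distance from its summit to the nearest protein-coding TSS in kb (log axis); bars give the median signal in 5 distance classes. The medians lie between 68.9 and 79.5, and signals above 300 occur at distances of 3165 to 11921 bp.

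The 5 peaks farthest from a TSS had modest signals. The fifth, at 49799 bp, lay between Or67d, which encodes a receptor for a male pheromone, and CG12362, with a signal of 54.6. The other 4 lay inside lncRNA:flam, the flamenco locus, whose transcripts are processed into piRNAs against transposons, between DIP1 and CG40813. Their signals were 95.6, 74.7, 47.8 and 9.04, at 85460, 108862, 137032 and 137247 bp. The last pair rested on the same regions of both replicates, with 27.0 in replicate 1 and 26.8 in replicate 2. The peak of 74.7 had no region in the ranked list of replicate 2. A summit inside an annotated transposable element occurred in 3 of the 246 peaks (1.22%), against 0.129% of other main-arm peaks and 3.89% of comparison regions. Among the 3 were the flam peaks of 95.6 and 74.7.

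The 246 peaks fell in 163 gaps between 309 flanking genes. Both flanking genes pointed away from the gap at 81 peaks (32.9%, against 24.0% of comparison regions), in the same direction at 102 (41.5%, against 51.1%), and towards the gap at 63 (25.6%, against 22.4%). The summit was upstream of its nearest TSS at 154 peaks (62.6%), against 58.2% of comparison regions. A flanking gene with a conservative summit within 1 kb of its own TSS occurred at 51 peaks (20.7%; 16.1 to 26.2%), against 7.59% of comparison regions. In gaps of up to 20 kb it occurred at 33 of 126 peaks (26.2%) and 9.79% of regions, and in longer gaps at 18 of 120 peaks and 6.43% of regions. Genes that had both a promoter summit and distal intergenic peaks included hng3, with 8 peaks in the gap to CG13898 and 1 on its other side, and Cyt-c1L, with 4. Also among them were Act5C, Atf3, aop, kay, lola and E(spl)m3-HLH.

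Some gaps held several distal intergenic peaks. Of the 163 gaps, 123 held 1 distal intergenic peak, 21 held 2 and 19 held at least 3, with 81 peaks in those 19. Runs of at least 3 peaks with steps of up to 10 kb numbered 14 and held 60 peaks. The longest gap list was that of hng3/CG13898 on 3L, where 8 peaks had signals of 53.2 to 157 and 4 were in both replicates' lists. In CG4004/Paics 6 peaks had signals of 48.6 to 622, in Ids/sty 6 had 53.8 to 88.2, and in mtSSB/tara 5 had 33.9 to 384. The spread within a gap was wide in CG4004/Paics and mtSSB/tara and narrow in Ids/sty. Other runs lay in Cyt-c1L/eEF1gamma, with 4 peaks of 72.4 to 303, in RFeSP/chinmo, with signals of 78.9, 129 and 102, and in CG18404/heca, with 78.8, 62.4 and 164. The chinmo gene encodes a BTB zinc-finger factor of temporal cell identity, and heca (headcase) acts in tracheal branching and imaginal cells. Another peak of the chinmo gap, 1464 bp upstream of chinmo, had a signal of 94.6. Further runs were those at RYBP/Ppa, COX7AL2/CG31668, CG1888 to Not1, CG13898/Sf3b3 and CG7557/CG12289, and the one next to CG10348. In 5 of the 14 runs, at least 1 peak shared its replicate regions with a stronger neighbour. In the COX7AL2/CG31668 run, the peaks of 73.7 and 21.8 had overlapping intervals. Whether the peaks gathered more closely than comparison regions was not tested.

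**Figure D4:**
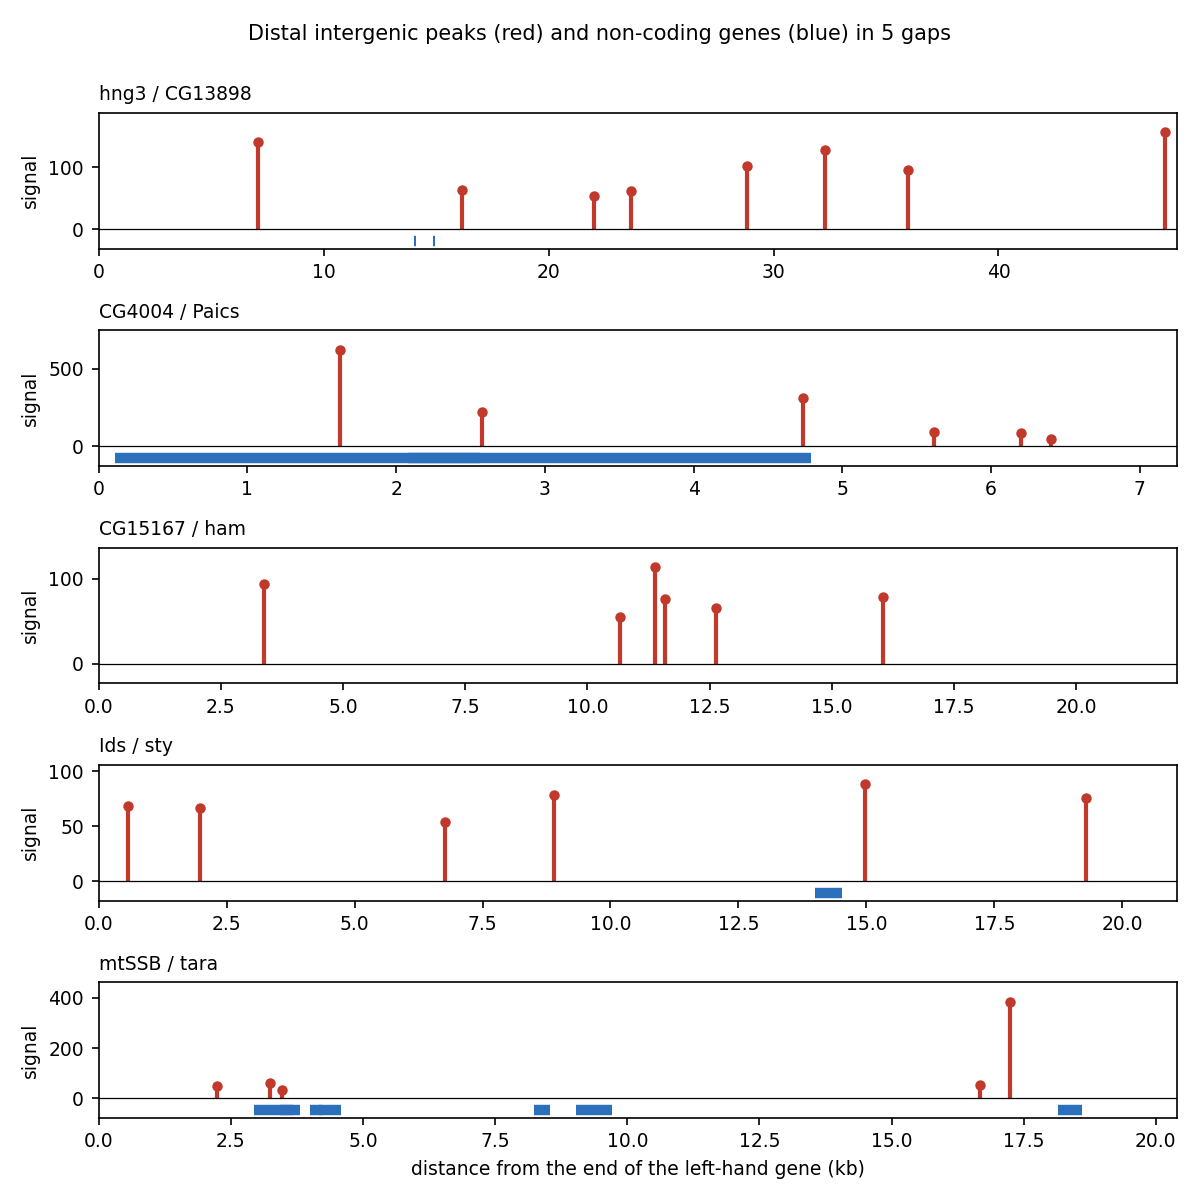
Distal intergenic peaks (red stems, height is the pooled signal) and non-coding genes (blue bars) in 5 of the gaps with most peaks, drawn from the end of the left-hand protein-coding gene in kb. The gaps hold 8, 6, 6, 6 and 5 peaks; a non-coding gene lies under the 3 highest peaks of CG4004/Paics, and the CG15167/ham gap holds none.

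The run next to the tagged gene needs its own values. CG10348 lies at chr2L:18714453-18732524 on the minus strand, and 7 distal intergenic peaks lay within 50 kb of it, 1 upstream of CG10348 itself and 6 between CG15167 and ham. Their signals were 54.8 to 114, and none of the 7 was in both replicates' lists, against 31.3% of all 246. Among all distal intergenic peaks that share was 3.77% at signals of 60 or below, 2.63% at 60 to 80 and 40.6% at 80 to 120. The strongest of the 7 had 93.0 in replicate 1 and 34.0 in replicate 2. The peak next to it (75.9) rested on the same replicate 1 region. The 7 peaks had a median signal of 75.9, against 78.2 at distal intergenic peaks elsewhere. Regions around the gene that did not pass had a higher median than those of the whole arm. It was 22.9 over 149 regions within 50 kb, against 16.5 over all 23778 on 2L. In the 20 kb on the upstream and downstream sides it was 33.8 and 28.9. Whether the inserted transgene took part in these signals was not tested. Without the 7 peaks, 239 remained with a median signal of 78.2.

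Gene lists for developmental pathways and large families were counted by the genes that flank a distal intergenic peak. Genes of the EGFR pathway flanked 8 peaks (3.25%, against 1.18% of comparison regions), in 2 gaps. They were 6 peaks next to sty (sprouty), which encodes a feedback inhibitor of receptor tyrosine kinases, and 2 next to aop (Yan), a transcriptional repressor downstream of the receptor. The 6 lay 1788 to 20505 bp from the end of sty, in its convergent gap with Ids. Most of them were nearer to the TSS of Ids. The Notch list flanked 4 peaks (1.63%, against 0.423%) in 2 gaps of the Enhancer of split complex, whose bHLH genes are direct Notch targets. The names Dl and Hairless on that list found no match in the annotation and were not counted. The peak printed above, between E(spl)m2-BFM and E(spl)m3-HLH, had a signal of 89.2, with 51.2 in replicate 1 and 40.0 in replicate 2, and the others had 59.3, 68.0 and 76.1. The Hippo and planar polarity list flanked 5 peaks (2.03%, against 0.583%). They lay next to ex, a Hippo pathway component (109), fz, the Frizzled receptor (79.1), ds, a large cadherin (68.6), and fj, a Golgi kinase of cadherins (66.6 and 49.4). Each list thus held few peaks in few gaps. None of the peaks of the Notch list or of the Hippo and planar polarity list was in both replicates' lists, against 31.3% of all 246. The Notch peak of 59.3 and the weaker aop peak (59.2) had no region in the ranked list of replicate 1.

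Among ligands and receptors, dpp, the BMP ligand, had a peak 1711 bp upstream with a signal of 109, and dally, a glypican, one of 62.8. The BMP list flanked 2 peaks (0.813%, against 0.481%). The Wnt and hedgehog list flanked 3 (1.22%, against 0.528%), next to ptc, the Hedgehog receptor (123), fz (79.1) and in the gap between Wnt4 and wg (66.0). The proneural and bristle list flanked 8 (3.25%, against 1.57%), of which 7 were those next to CG10348 and ham and the eighth lay downstream of hry (hairy; 56.0). The ecdysone list flanked 5 (2.03%, against 1.76%). The signal was 128 upstream of Eip93F, a specifier of adult fate in the pupa. It was 69.9 next to the nuclear receptor gene Hr38, and 69.2 and 19.1 in the gap between Eaf6 and Blimp-1, a PRDM-family repressor. The peaks of that gap lay 19124 and 18922 bp from Blimp-1, and nearer to the TSS of Eaf6, at 3559 and 3761 bp. Both rested on the same regions of the replicates and were in neither replicate's list.

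Large families of effector and identity genes were counted in the same way. Homeobox and Hox genes flanked 7 peaks (2.85%, against 6.20%), among them peaks next to C15 (53.5), E5 (61.5 and 58.1), Hmx (49.4), abd-A (54.6) and vvl (57.1). The dpr, DIP, side and beat families of neuronal surface proteins flanked 1 (0.407%, against 4.25%), next to dpr17. Chemosensory receptor genes flanked 10 (4.07%, against 4.09%), and odorant binding proteins 1 (0.407%, against 0.837%). Cuticle proteins flanked 2 (0.813%, against 0.659%), cytochrome P450 genes 3 (1.22%, against 1.34%) and ribosomal protein genes 1 (0.407%, against 1.53%). These differences between lists were not tested, and neighbouring peaks of a gap count more than 1 time in them.

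By chromosome arm, 3L held 78 of the 246 peaks (31.7%) and 8.40 peaks per Mb of DNA that met the rule. The densities were 6.85 on 2L, 6.99 on 3R, 5.72 on X and 4.13 on 2R. Comparison regions were denser on 3R (1050 per Mb) and 2L (999) than on 3L (856). Distal intergenic peaks were 19.4% of all peaks of 3L and 9.39% of those of X. Chromosome 4 held none, which allows a share of up to 1.22% of the 246 (3 counts, counting error only), and it had 0.273 Mb that met the rule. None of all 1799 main-arm peaks lay on chromosome 4 either, and comparison regions there stood at 209 per Mb.

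The bases at the summits differed from those around them. In the 100 bp at the summit, G and C made up 36.8% of bases on average (SD 10.8 over 246 peaks), against 45.8% in windows centred 300 bp to each side. Other main-arm peaks had 34.9% and 44.6%, and comparison regions had 45.2% and 41.4%. The dip at the summit was thus shared with the other peaks and turned round in regions that did not pass. GC content was below that of the flanks at 187 distal intergenic peaks (76.0%; 70.3 to 80.9%), against 79.2% of other peaks and 33.8% of comparison regions. The dip went with the signal. Peaks of up to 60 averaged 44.2% at the summit, those of 60 to 80 averaged 38.6%, and those of 80 to 120 and above 120 both averaged 32.3%. Spearman's coefficient of signal with GC content was -0.438 across the 246 peaks, which share both libraries. The part of base composition in the signal was not tested.

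**Figure D5:**
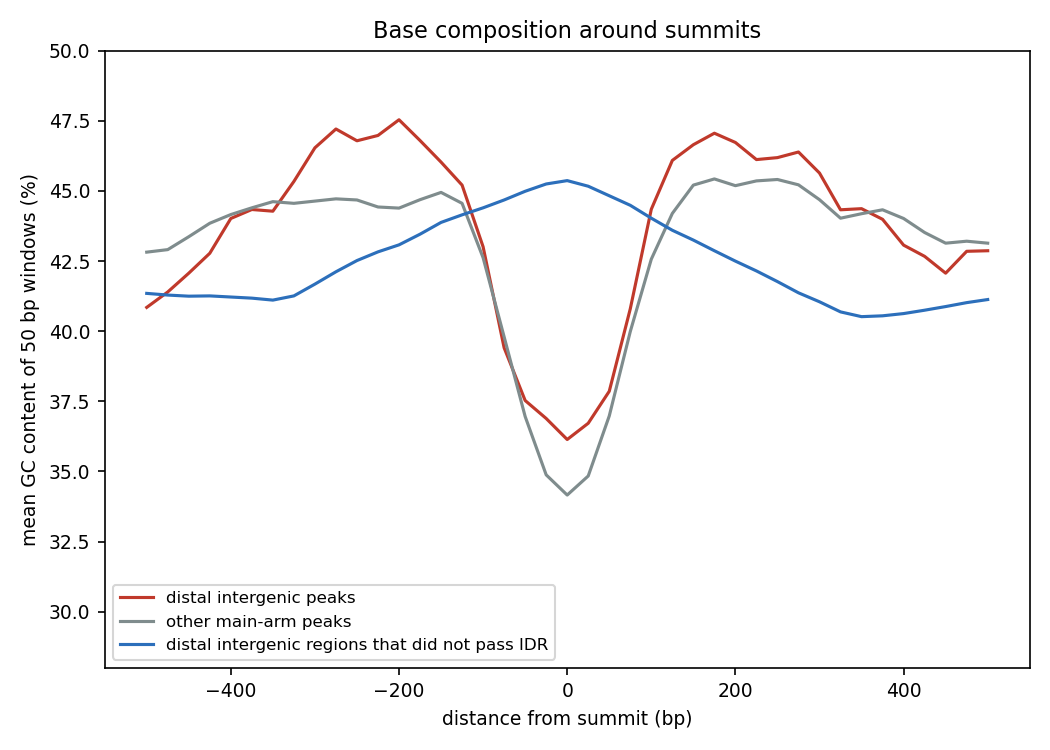
Mean GC content of 50 bp windows (vertical axis, not starting at 0) at distances of up to 500 bp from the summit for distal intergenic peaks, other main-arm peaks and distal intergenic regions that did not pass IDR. Both sets of peaks dip at the summit, and the regions that did not pass peak there.

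An A/T run of at least 8 bases, as marked in the printed windows, was in 155 summit windows (63.0%) and in 42.1% of the flanking windows. The shares at other main-arm peaks were 72.2% and 44.2%, and at comparison regions 45.6% and 55.8%. By signal, 37.7% of distal intergenic peaks of up to 60 held a run, 60.5% of those of 60 to 80, 78.3% of those of 80 to 120 and 72.9% of those above 120. Short sequences were counted on both strands in the same windows. TTTAAA was in 19.5% of summit windows and 4.67% of flanks, against 20.5% and 6.25% at other peaks and 6.72% and 10.5% at comparison regions. AAATAT was in 24.4% and 14.0%, against 31.0% and 13.7% at other peaks and 13.6% and 19.1% at comparison regions. Both consist of A and T and can lie within an A/T run. The GATA-factor sequence GATAA was in 19.5% of summit windows and 14.0% of flanks, against 21.8% and 16.2% at other peaks and 14.6% and 17.5% at comparison regions. The overlapping sequence CGATA was in 10.2% and 7.11%, against 11.1% and 10.3% at other peaks and 9.40% and 9.79% at comparison regions. The homeodomain sequence TAATTA was in 7.32% and 4.47%, against 9.21% and 4.15% at other peaks and 5.80% and 7.41% at comparison regions. For these 3 sequences, as for those of A and T, both sets of peaks had the higher share at the summit. GAGAG, a sequence bound by GAGA factor, was in 11.4% and 17.1%, against 8.82% and 17.9% at other peaks and 11.6% and 10.8% at comparison regions. CACACA was in 6.10% and 14.8%, against 5.28% and 13.2% at other peaks and 10.2% and 8.88% at comparison regions. CAGCTG, an E-box, was in 1.22% and 6.50%, against 2.64% and 5.22% at other peaks and 4.68% and 3.71% at comparison regions. These 3 sequences were in fewer summit windows than flanks in both sets of peaks. Such matches describe the letters of the windows only.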

How the data were processed

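ChIP-seq against GFP was measured in 2 replicates of 1 group. The authors deposited peak lists on dm6, per the labels; the aligner and peak caller are not given in the sources used here. The deposited signal is the authors' peak strength, the deposited score is their scaled IDR (830 corresponds to 0.01), and the deposited −log10 values give the IDR. The summit offset is the authors' own. Gene positions came from Ensembl (13945 protein-coding and 3738 non-coding genes on the main arms), sequence from RefSeq. Overlaps needed 1 bp. Intervals are Wilson 95%. Regions are not replicates, so no p-value was computed. Python 3.11.15, pandas 2.3.3, numpy 2.4.6, scipy 1.17.1 and matplotlib 3.10.9 were used, and the position rule was tested on simulated data. The peaks, the 14 gene lists (339 entries, 6 names without a match) and the 8 consensus sequences were chosen with earlier results of these data known. Peaks named were the 20 strongest, the 5 farthest from a TSS, the 10 strongest inside non-coding genes, those near small RNA genes, runs of at least 3, and flanks on the lists; others were chosen after their values were seen. Some peaks that the rule names are not reported here. Alternatives covered the optimal list, each replicate's list, stricter IDR, other distances and windows.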

Additional observations from a re-analysis of the deposited data

How the results depend on the processing

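The 8 summary values were recomputed under other settings, and the peaks stayed weaker by the median than other main-arm peaks in each of them. An IDR of 0.001 left 78 distal intergenic peaks (9.79% of main-arm peaks), with a median signal of 129, a ratio to other peaks of 0.927 (0.885 as reported), 32.9% GC and 100% of them in a replicate's list. With each replicate's list used without the other, the number was 129 to 154, the share 12.1 to 12.7%, the median signal 48.6 to 54.8, the ratio 0.886 to 0.888, the median distance 4697 to 5354 bp and GC content 35.1 to 35.3%; the share in a replicate's list has no value there. A TSS limit of 500 bp gave a share of 15.9%, a ratio of 0.893 and a median distance of 3897 bp, and a limit of 2 kb gave 11.0%, 0.893, 6325 bp and 37.2% GC. The ratio was 0.870 in the optimal list, 0.888 by whole peak intervals and 0.869 with each replicate pair counted 1 time, where GC content was 36.4%. GC content was 36.1% in 50 bp and 38.5% in 200 bp windows. A non-coding gene within 2 kb was found for 40.7%. Leaving out peaks within 50 kb of CG10348, an alternative chosen after seeing the data, gave 36.5% GC. No paired analysis was possible because there was 1 group. Depth was unknown, and weak peaks rest on ranks in 2 libraries with a shared control.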

Other observations

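Several transcription factor genes outside the lists, chosen after their values were seen, also flanked distal intergenic peaks. Upstream of foxo, the effector of insulin signalling, 2 peaks had signals of 153 and 111, with 74.8 and 65.8 in replicate 1 and 83.8 and 46.6 in replicate 2, and both were in both replicates' lists. Upstream of ovo (shavenbaby), which shapes epidermal trichomes, 2 peaks inside lncRNA:CR44833 had signals of 116 and 59.8. Next to kay, the Fos gene, 2 peaks inside lncRNA:CR44953 had 75.3 and 68.5, and kay had a promoter summit as well. The zinc-finger gene klu (klumpfuss) had 67.6 and 63.5 in its gap to Fad2, and noc had 84.5 and 71.3 on its 2 sides. A peak 1652 bp upstream of Myc had a signal of 62.3, and 1 between lola and psq, 173 bp from lncRNA:acal, had 97.0.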
